A study of Mus musculus with 18 samples.

Results

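Mature oligodendrocytes, the cells that wrap axons in myelin, were examined in single-nucleus RNA libraries of the hippocampus (Hip) and the prefrontal cortex (PFC) of mice that lived without or with gut microbes. Members were selected on measured RNA: a nucleus was taken when the unique molecular identifiers (UMIs, 1 per captured RNA molecule) of 4 oligodendrocyte genes, Mog, Mag, Mobp and St18, summed to at least 4 and to at least 2 times the UMIs of 10 genes of other cell types. Those 10 genes were Slc17a7, Gad1 and Gad2 of neurons, Pdgfra and Cspg4 of oligodendrocyte precursor cells (OPC), Aqp4 and Gja1 of astrocytes, Csf1r and Inpp5d of microglia and Flt1 of endothelium. The rule found 11236 members among 138000 nuclei, 8910 of 71398 in Hip and 2326 of 66602 in PFC. All 14 genes of the rule are given as levels only and enter no count of a gene list and no choice of named genes. They were not taken out of the fits, so the totals of genes tested and called can include them.

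Myelin is a stack of membrane held together by proteins such as myelin basic protein (Mbp), and it is rich in cholesterol and galactosphingolipids that the oligodendrocyte makes itself. Its genes are switched on by the transcription factors Sox10, Olig1 and Myrf as precursors stop dividing. In the mature cell the same programme is kept up, beside gap junctions to astrocytes, supply of lactate to axons, storage of iron and a strong response to glucocorticoid hormones, in which the receptor Nr3c1 raises genes such as Fkbp5 and Sgk1.

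The 9 mice were male Kun Ming mice, an outbred stock, and were 8 weeks old. Germ-free (GF) mice had no microbes (mice 5, 6 and 7), specific pathogen-free (SPF) mice carried a normal flora (mice 30, 31 and 32), and colonized GF (CGF) mice were born germ-free and then housed with SPF mice (mice 17, 18 and 19). Each mouse gave 1 library of each region, so each group had 3 libraries a region and the mouse was the replicate. GF mice differ from SPF mice in microbes from birth on and in their housing, which a comparison of these 2 groups cannot separate. Isolators housed both the GF and the CGF mice, while SPF mice were raised under other conditions. GF and CGF mice thus share this housing, and CGF and SPF mice differ in it. CGF mice gained microbes only after early life. Values below follow the order of mice 5, 6, 7 (GF), 30, 31, 32 (SPF) and 17, 18, 19 (CGF).

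The label was checked first, and it held for a part of the members. In PFC, 2135 of 2326 members had at least 20 UMIs of the 4 rule genes per 10000 UMIs of the nucleus. A shallow nucleus with 4 rule UMIs passes this limit by its depth alone, so the count by itself does not check the label. Myelin genes that the rule did not use (23 genes) summed to 106 to 145 UMIs per 10000 in these PFC members. In the PFC nuclei outside the rule they summed to 8.65 to 11.5. The same PFC members held 65.8 to 94.5 UMIs per 10000 of 12 neuron genes, against 265 to 399 outside the rule. In Hip, 2927 of 8910 members lay below that limit, and these carried 47.3% to 72.0% of the members' UMIs in a library. Their rule UMIs were mostly St18 (80.1% to 91.8%), their median depth was 6465 to 10420 UMIs, and 12 neuron genes took 340 to 428 UMIs per 10000, against 328 to 396 in the nuclei outside the rule. Prox1, a transcription factor of dentate gyrus granule neurons, had a UMI in 51.3% to 71.7% of them and in 23.9% to 46.2% of the members above the limit. These shares were not thinned to a like depth, and Hip members above the limit were shallower (median 1874 to 2916 UMIs). PFC members above the limit had a Prox1 UMI too, in 14.0% to 24.5%. In Hip the same 23 myelin genes summed to 12.3 to 18.9 UMIs per 10000 below the limit and to 104 to 135 above it. Hip nuclei outside the rule had 10.8 to 14.1, near the level below the limit.

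**Figure D1:**
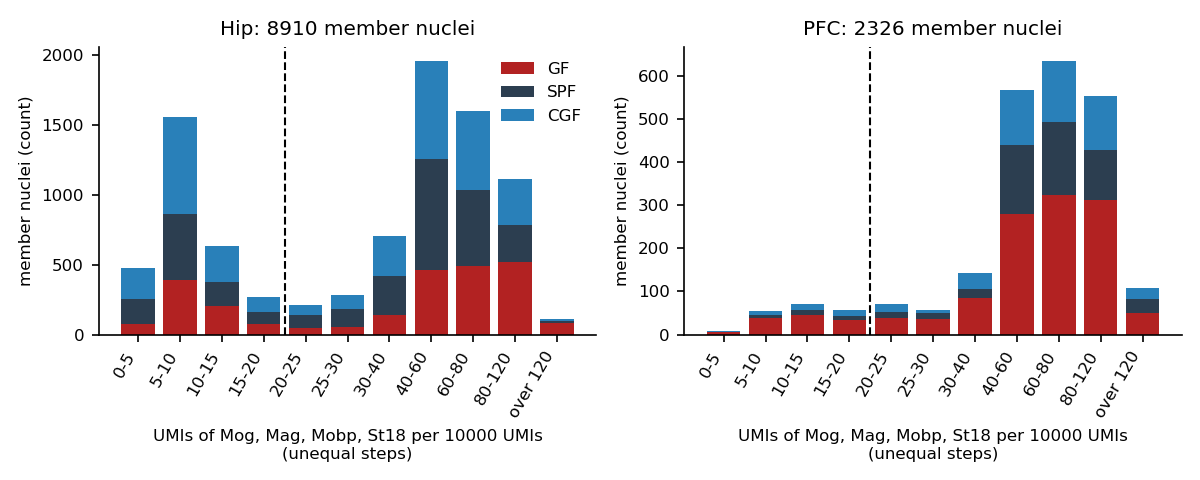
Number of member nuclei (vertical axis) by the UMIs of Mog, Mag, Mobp and St18 per 10000 UMIs of the nucleus (horizontal axis), stacked by group, for Hip and PFC, with a dashed line at 20. Hip shows a peak below the line, which holds 2927 of its 8910 members, and PFC has 191 of 2326 there.

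Members above the limit are called dense nuclei here and those below it sparse nuclei. The limit was set after the data were seen and uses the rule genes only. It left 8118 dense nuclei: in Hip 1792 of GF, 2118 of SPF and 2073 of CGF mice, and in PFC 1124, 526 and 485. Between 15 and 25 UMIs per 10000 lay 478 Hip and 129 PFC members. The sparse nuclei get no cell type name, and the results lead with the dense nuclei and give the number of genes called over all members beside each comparison of groups or regions. Among nuclei that met the ratio, 906 in Hip had 3 rule UMIs, just outside the rule, and 59 of these were dense; 932 had 4, just inside, and 149 were dense. In PFC the same numbers were 297 with 249 dense, and 292 with 264 dense.

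The 9 Hip libraries held 49067853 to 63217083 UMIs each. Their median dense nucleus had 1874 to 2156 UMIs in GF mice, 2273 to 2916 in SPF mice, and 2077 to 2354 in CGF mice, so that GF nuclei were shallower than SPF nuclei without overlap, as were the nuclei outside the rule (4984 to 6121 against 6620.5 to 7752). Mitochondrial UMIs took 0.414% to 0.618% of a median dense Hip nucleus in GF mice, 0.194% to 0.378% in SPF mice, and 0.147% to 0.375% in CGF mice, with GF mice above all others. The part of depth and of mitochondrial share in the Hip differences below was not tested; with the sums of dense nuclei thinned to the lowest total, GF and SPF mice differed in 1841 genes upward and 1290 downward of 10932. The PFC libraries differed far more. GF libraries held 59126586 to 71463928 UMIs, against 20336250 to 26949210 in SPF mice, and 22213863 to 26151503 in CGF mice, and the median dense nucleus had 1937 to 2213, 870 to 984 and 909 to 1053 UMIs. Mitochondrial UMIs took 0.319% to 0.478% of a median dense PFC nucleus in GF mice, 2.35% to 4.26% in SPF mice, and 1.84% to 3.01% in CGF mice. In PFC, therefore, GF mice cannot be told apart from the difference between the libraries. Any 2 of the 18 libraries shared 6 to 29 cell barcodes, at most 0.366% of a library and at most 1 dense nucleus.

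The share of hippocampal nuclei that were members was lower in each GF mouse than in every mouse with microbes, though under the main rule no test of it passed after adjustment. In Hip, 11.01%, 10.7% and 8.09% of nuclei were members in the GF mice, 14.0%, 12.7% and 13.7% in the SPF mice and 15.1%, 15.5% and 12.4% in the CGF mice. All 3 GF values lay below all 6 others. With the nuclei of Hip thinned to its shallowest library the difference between GF and SPF means was -2.55 points and the values stayed apart, but under 2 other settings they did not. With all 18 libraries thinned to the same depth the means were 6.79% in GF and 8.10% in SPF mice, a difference of -1.31 points (exact permutation p = 0.2), and the highest GF mouse (7.98%) was above the lowest SPF (7.09%) and CGF (7.25%) mice. With at least 8 rule UMIs the highest GF mouse (7.82%) was above the lowest CGF mouse (7.52%). GF and SPF means were 9.94% ± 1.61 and 13.5% ± 0.686 (SD, n = 3), a difference of -3.52 points with p = 0.1 in the exact two-sided permutation test, the smallest p that 3 against 3 mice allow. Over the 3 groups the exact permutation test gave p = 0.0179, or 0.0714 adjusted over the 8 tests of both regions. The dense nuclei alone took 7.005% ± 1.35 in GF mice, 9.40% ± 0.908 in SPF mice, and 8.92% ± 1.45 in CGF mice (SD, n = 3), the groups overlapped, and the exact permutation test over 3 groups gave p = 0.143. A share of nuclei cannot tell fewer oligodendrocytes from more nuclei of another type.

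In PFC the GF mice had the larger shares. Members took 5.06% ± 0.491 of nuclei in GF mice, 2.76% ± 0.285 in SPF mice, and 2.39% ± 0.802 in CGF mice (SD, n = 3; exact permutation test over 3 groups p = 0.0179, adjusted 0.0714), and GF and SPF did not overlap. A deeper library reaches 4 rule UMIs more easily. With each nucleus of the region thinned to the depth of the shallowest library, the GF-minus-SPF difference went from 2.31 to 1.29 points for members and from 1.95 to 1.11 points for dense nuclei. Within each mouse, Hip had the larger share of members in 9 of 9 mice, by 9.18 points ± 3.47 (SD; exact sign permutation p = 0.00391, the smallest that 9 mice allow). That difference was 5.31 points for dense nuclei and, with all libraries thinned to the same depth, 4.98 points for members and 3.79 for dense nuclei.

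**Figure D2:**
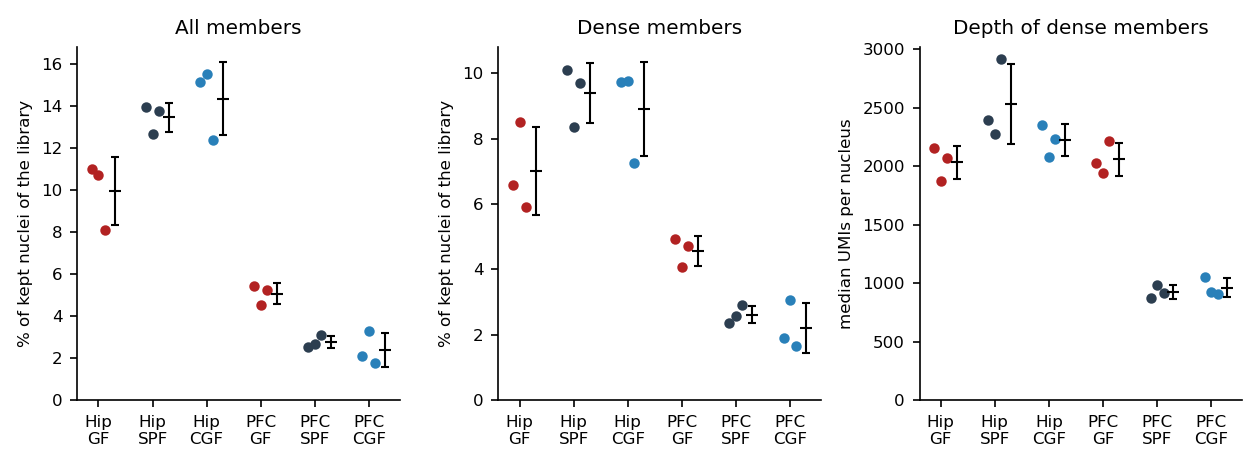
Members (left) and dense nuclei (middle) as a percentage of kept nuclei, and the median UMIs of a dense nucleus (right), 1 point per library by group and region, with the mean and SD of the 3 libraries of a group. The 3 GF Hip libraries had 8.09% to 11.01% members, below the other Hip libraries, and dense nuclei of the 6 PFC libraries of SPF and CGF mice held 870 to 1053 UMIs.

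To ask what the dense nuclei of the hippocampus held in the absence of microbes, their UMIs were summed per mouse and 11560 genes were tested with edgeR's quasi-likelihood test. A change is called at a Benjamini-Hochberg adjusted p under 0.05, and levels are CPM, the UMIs of a gene in the summed nuclei per 1e6 UMIs, with totals scaled by edgeR's TMM factors. Between GF and SPF mice 1986 genes were higher (17.2%) and 1634 lower (14.1%). Against CGF mice GF mice had 2108 higher (18.2%) and 1666 lower (14.4%). Between CGF and SPF mice only 11 genes were higher (0.0952%) and 7 lower (0.0606%). All members, with their sparse nuclei, gave 5122 calls of 14083 genes (36.4%), 5739 (40.8%) and 51 (0.362%). GF mice enter the first pair of comparisons alike, so these 2 sets of calls are not independent. The share of all genes called outside the rule or in sparse nuclei is not given. List counts of those nuclei below are therefore values only. Their median log2 difference of GF against SPF over all genes tested was 0.031 outside the rule and 0.018 in sparse nuclei.

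The rule genes differed in level between the groups. Mog, an outer myelin protein, was at 1138, 1316 and 1126 CPM in GF mice, 747, 755 and 547 in SPF mice, and 923, 741 and 712 in CGF mice. Mobp was at 1625, 1395 and 1319 CPM, at 1017, 953 and 861, and at 743, 779 and 740. GF values lay above all others for both genes. Mag, which binds the axon surface, was at 651 to 831 CPM in GF and 503 to 748 in SPF mice, and the transcription factor St18 at 3548 to 3686 and 2912 to 3820 CPM, so that both overlapped. The rule counts these genes, and the values are a description.

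Myelin genes outside the rule were higher in GF mice more often than lower. Of 22 tested, 10 rose, 1 fell and 11 did not pass, against 17.2% higher and 14.1% lower over all genes tested. Their median log2 difference was 0.26, against -0.035 over all genes tested. With any 1 mouse left out, 8 to 11 rose. Over all members 9 rose and 1 fell, where 36.4% of all genes were called in either direction. Outside the rule 4 rose and 5 fell (median -0.15, against 0.031 over all genes tested there). The rule genes took 67.1 to 68.1 UMIs per 10000 of a median dense nucleus in GF mice, 48.9 to 59.0 in SPF mice, and 55.0 to 59.3 in CGF mice, and 5 of 12 neuron and 6 of 10 astrocyte markers fell in GF dense nuclei; the part of both in the myelin genes was not tested. Mal, a protein that sorts membrane to myelin, was at 361, 376 and 371 CPM in GF mice, at 209, 239 and 216 in SPF mice, and at 184, 178 and 210 in CGF mice. No GF mouse overlapped with the others, and the log2 difference to SPF was 0.74 ± 0.12 (SE; adjusted p = 0.00032, edgeR). Cnp, the nucleotide phosphodiesterase of the myelin channels, was at 177, 199 and 152 CPM against 107, 114 and 121 in SPF mice, a difference of 0.63 ± 0.13 (adjusted p = 0.00222). The tetraspanin Cd81 had 302, 431 and 410 against 169, 173 and 186 CPM, with a log2 difference of 1.12 ± 0.14 (adjusted p = 7.69e-05). In each of these genes the groups were apart.

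Cmtm5 (log2 difference 1.16), Cd9 (0.77), Sept4 (0.72), Ermn (0.70), Anln (0.65), Cldn11 (0.40) and Jam3 (0.39) rose too, and Tppp, which binds tubulin, was the gene that fell (-0.51). The calls of Cldn11, Jam3 and Tppp were lost when a single mouse was left out (highest adjusted p 0.0803, 0.0543 and 0.122, edgeR). Mbp did not pass, at 3558, 3547 and 3070 CPM in GF and 3134, 3064 and 2592 in SPF mice, a log2 difference of 0.21 ± 0.12 (adjusted p = 0.202), and its groups overlapped. It did pass against CGF mice, by 0.45 ± 0.12 (adjusted p = 0.0111, edgeR), where 12 of the 22 genes rose and none fell. Of all genes tested, 18.2% were higher and 14.4% lower in that comparison. Opalin, a late myelin protein, was at 188 to 285 CPM in GF and 169 to 267 in SPF mice.

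Of 11 transcription factors of the lineage 3 rose and none fell (median 0.55), against 17.2% and 14.1% over all genes, and outside the rule 1 rose and 3 fell. Olig1, a helix-loop-helix factor, was at 96.9, 98.1 and 80.3 CPM in GF mice, 40.4, 38.6 and 51.7 in SPF mice, and 54.5, 51.1 and 59.5 in CGF mice. GF mice were above all others, with a log2 difference to SPF of 1.06 ± 0.15 (adjusted p = 0.000198, edgeR). Sox8 had 185, 192 and 126 against 123, 86.3 and 72.8 CPM (0.84 ± 0.20, adjusted p = 0.00456). Sox10 (chromosome 15:79154908-79165240, minus strand, mm10), which drives myelin genes, had 354, 344 and 235 against 213, 261 and 150 CPM (0.59 ± 0.19, adjusted p = 0.0286). Its groups overlapped and the call was lost when any 1 of 4 mice was left out, with an adjusted p of up to 0.0932. Myrf, its partner in the mature cell, differed by 0.03 (adjusted p = 0.907).

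Of 20 genes of myelin sphingolipids and fatty acids 5 rose and 3 fell (median 0.01), and of 23 genes of cholesterol synthesis 3 rose and 1 fell (median 0.06). These counts are near or below the shares over all genes tested, 17.2% higher and 14.1% lower, and single genes are given as values. Scd2, the desaturase that makes oleate in brain, was at 548, 586 and 569 CPM in GF mice, 262, 314 and 324 in SPF mice, and 357, 416 and 371 in CGF mice. It rose by 0.92 ± 0.12 on the log2 scale (adjusted p = 0.00011, edgeR), with no overlap. Elovl1, which elongates very long saturated chains, rose by 0.83 (adjusted p = 0.00805). Elovl7 was lower, at 285, 271 and 208 CPM against 500, 470 and 367 in SPF mice (-0.80 ± 0.16, adjusted p = 0.00138). Ebp and Pmvk of cholesterol synthesis rose by 1.20 and 0.84 and Srebf2, the regulator of that pathway, fell (-0.56).

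Among 19 genes of contact with and supply to axons, 3 rose and 3 fell, again near the 17.2% and 14.1% over all genes. The connexin Gjb1, of gap junctions within the myelin and to astrocytes, was at 30.0, 42.8 and 27.0 CPM in GF mice, 9.70, 11.8 and 9.58 in SPF mice, and 14.7, 8.18 and 9.92 in CGF mice. Each GF mouse was far above the rest (log2 difference to SPF 1.71 ± 0.26, adjusted p = 0.00024, edgeR). Gjc3, a related connexin, had 508, 472 and 388 against 291, 325 and 214 CPM (0.73 ± 0.16, adjusted p = 0.00303). Nfasc, which holds the paranodal junction, fell (-0.43, adjusted p = 0.0184), as did Kcnj10 and Dlg1. None of these 3 losses was called without GF mouse 6.

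Genes that mark late subsets of mature oligodendrocytes were examined next. Of 9 genes of the Ptgds subset 3 rose and 1 fell, a few genes off the 17.2% and 14.1% over all genes. Ptgds (chromosome 2:25466709-25470046, minus strand, mm10), which makes prostaglandin D2, was at 318, 256 and 321 CPM in GF mice, 91.1, 93.5 and 70.5 in SPF mice, and 94.3, 72.1 and 90.0 in CGF mice. The lowest GF mouse was well above the highest of the others, a log2 difference to SPF of 1.82 ± 0.15 (adjusted p = 1.15e-05, edgeR). Apod, a lipid carrier, rose by 0.68 ± 0.12 (adjusted p = 0.000586) and Jph4 fell (-0.97). Of 6 tested genes of the Klk6 subset 5 rose, with a median of 0.94, but so did 6 of 8 in the nuclei outside the rule (median 0.88) and 4 of 7 in the sparse nuclei (0.91). They included the calcium-binding S100b (1.16 ± 0.17, adjusted p = 0.00024) and Mgst3 (52.3, 66.7 and 68.4 against 19.9, 15.7 and 19.2 CPM, 1.76 ± 0.18, adjusted p = 2.63e-05). Without GF mouse 6, 2 genes of this subset passed. Among 14 genes of newly formed cells Gpr17 alone passed (0.83, adjusted p = 0.0495), and its call was lost with a mouse left out (up to 0.225). Among 10 genes of immune-reactive oligodendrocytes Ifi27 passed (0.74) and the other 9 did not.

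The same could be seen nucleus by nucleus. With each dense Hip nucleus thinned to 500 UMIs, Ptgds had a UMI in 11.8% to 15.5% of GF, 3.66% to 5.18% of SPF and 3.24% to 4.78% of CGF dense nuclei, and in 0.4% to 2.5% of the nuclei outside the rule. Unthinned shares were 33.5% to 41.5%, 18.8% to 19.8% and 12.5% to 19.9%, at median depths of 1874 to 2916 UMIs. Fkbp5 was detected in 4.49% to 6.83%, 0.883% to 1.56% and 1.19% to 1.86% of thinned dense nuclei (unthinned 16.0% to 26.9%, 7.77% to 9.08% and 5.89% to 9.56%), and the nuclei outside the rule had it, thinned, in 4.7% to 5.8% in GF mice, 2.9% to 3.6% in SPF mice, and 2.7% to 3.6% in CGF mice. Unthinned, those shares outside the rule overlapped between GF and SPF mice, at 32.4% to 36.4% and 32.8% to 34.7%. In CGF mice they were lower than in both, at 28.1% to 31.6%. For both genes GF mice stood apart in dense nuclei, and for Fkbp5 also outside the rule when thinned. Opalin was in 8.22% to 15.7%, 9.08% to 13.9% and 9.37% to 14.5% of thinned nuclei and Enpp6, of newly formed cells, in 3.48% to 5.43%, 3.24% to 5.80% and 3.98% to 7.16%. For both genes the ranges of the groups overlapped (unthinned 31.3% to 44.3% for Opalin and 14.4% to 24.8% for Enpp6). Outside the rule, thinned, the shares were at most 0.6% and 0.3%.

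Glucocorticoid-responsive genes were higher more often than lower. Of 16 tested, 10 rose and 2 fell, against 17.2% higher and 14.1% lower over all genes tested. Their median log2 difference was 0.64, and 7 to 10 rose with any 1 mouse left out. Over all members 9 of 17 rose and 2 fell, where 36.4% of all genes were called in either direction. In the nuclei outside the rule 4 of 18 rose and 3 fell (median 0.11, against 0.031 over all genes tested there). Zbtb16 (chromosome 9:48654297-48836222, minus strand, mm10), a zinc finger factor, was at 335, 426 and 280 CPM in GF mice, 77.1, 60.2 and 87.7 in SPF mice, and 50.2, 146 and 86.7 in CGF mice. All GF mice were above all others, a log2 difference to SPF of 2.20 ± 0.27 (adjusted p = 6.56e-05, edgeR). Sgk1 (chromosome 10:21882184-21999903, plus strand), a kinase that regulates ion transport, had 244, 276 and 221 CPM against 88.4, 64.1 and 105 in SPF mice, and 52.7, 62.4 and 84.7 in CGF mice. That was a difference of 1.51 ± 0.18 to SPF (adjusted p = 5.5e-05) and 1.90 ± 0.19 to CGF mice (adjusted p = 1.36e-05), with no overlap.

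Fkbp5 (chromosome 17:28399094-28517527, minus strand), the co-chaperone that restrains the glucocorticoid receptor, was at 104, 159 and 96.2 CPM in GF mice, 39.3, 42.5 and 33.3 in SPF mice, and 27.6, 51.1 and 33.7 in CGF mice. Again the GF mice stood apart (1.66 ± 0.22, adjusted p = 0.00011, edgeR). Ddit4, which slows growth through mTOR, had 50.8, 53.5 and 45.3 against 10.2, 13.7 and 15.3 CPM in SPF mice (1.91 ± 0.24, adjusted p = 7.77e-05). Pdk4, which diverts pyruvate from the mitochondria, had 56.9, 47.2 and 51.7 against 22.6, 10.5 and 16.1 CPM (1.64 ± 0.22, adjusted p = 0.000117). Hif3a (1.37), the metal-binding Mt1 (1.30), Klf9 (0.66), Per1 (0.54) and Tsc22d3 (0.45) rose as well, and the last 3 lost their call with some mouse left out. The 2 genes that fell were the receptors. The glucocorticoid receptor Nr3c1 was at 125, 116 and 126 CPM in GF and 209, 244 and 166 in SPF mice (-0.75 ± 0.14, adjusted p = 0.00134), and the mineralocorticoid receptor Nr3c2 at 148, 126 and 161 against 267, 273 and 334 CPM (-1.01 ± 0.14, adjusted p = 0.000129). Neither overlapped. Against CGF mice 12 of the 16 rose and the same 2 receptors fell, where 18.2% of all genes tested were higher and 14.4% lower.

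Of 13 chaperones 9 rose and none fell (median 0.72, and 6 rose without GF mouse 7), against 17.2% higher and 14.1% lower over all genes tested. Outside the rule 8 of 14 rose (median 0.64). Cryab (chromosome 9:50751325-50756636, plus strand, mm10), a small heat shock protein abundant in oligodendrocytes, was at 218, 310 and 233 CPM in GF mice, 59.8, 53.6 and 82.4 in SPF mice, and 67.4, 46.0 and 56.2 in CGF mice. The groups were apart, with log2 differences of 1.94 ± 0.19 to SPF (adjusted p = 2.18e-05, edgeR) and 2.17 ± 0.19 to CGF mice (adjusted p = 8.56e-06). Hspa1a rose by 1.84 ± 0.40 (adjusted p = 0.00316) and the mitochondrial Hspe1 by 1.47 ± 0.18 (adjusted p = 5.86e-05). In iron handling, the ferritin heavy chain Fth1 (chromosome 19:9980598-9985098, plus strand) had 1666, 2136 and 1885 CPM in GF mice, 469, 507 and 735 in SPF mice, and 372, 446 and 678 in CGF mice. It rose by 1.73 ± 0.21 (adjusted p = 5.44e-05), the light chain Ftl1 by 1.74 ± 0.21 (adjusted p = 6.14e-05), and Heph, which oxidizes exported iron, by 0.84 ± 0.17 (adjusted p = 0.00183). Ireb2, which senses iron, fell (-0.56), a call that was lost when any 1 of 4 mice was left out (adjusted p up to 0.0712).

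Signal receptors were lower more often than higher. Of 23 growth factor and other receptors 10 fell and 2 rose (median -0.30), as did 13 and 2 of 27 outside the rule (median -0.34). Of 23 glutamate receptor genes 13 fell and none rose (median -0.56). Both counts of dense nuclei stand against 14.1% lower and 17.2% higher over all genes tested. Igf1r, the receptor of insulin-like growth factor 1, was at 272, 224 and 239 CPM in GF mice, 426, 432 and 409 in SPF mice, and 465, 387 and 343 in CGF mice. It fell, with no overlap, by 0.79 on the log2 scale (SE 0.13, adjusted p = 0.000547, edgeR). Insr (-0.72), Fgfr3 (-1.15), Adora1 (-0.79), Tnfrsf21 (-0.89) and Il6st (-0.86) fell likewise, while S1pr5, the sphingosine phosphate receptor of mature oligodendrocytes, rose by 0.89 ± 0.22 (adjusted p = 0.00727). The AMPA receptor subunit Gria2 was at 591, 573 and 626 against 1030, 903 and 1030 CPM (-0.73 ± 0.12, adjusted p = 0.000407). Its groups lay apart. Without GF mouse 6, 7 glutamate receptor genes fell.

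Genes of neurons and astrocytes, which oligodendrocytes hardly use, moved with these receptors. In dense nuclei 5 of 12 neuron markers fell and 1 rose, and their summed level was 5284 to 8051 CPM in GF mice, 6683 to 10750 in SPF mice, and 7695 to 9593 in CGF mice, against 32802 to 39571 in the nuclei outside the rule; none of the 12 was at 0. Of 10 astrocyte markers 6 fell and 1 rose, with sums of 977 to 1258, 1492 to 1679 and 1610 to 1822 CPM. Among all genes tested in dense nuclei 14.1% fell and 17.2% rose. Outside the rule 14 of 24 glutamate receptor genes fell as well and 1 rose. The part of RNA of other cells in the lower receptor genes was not tested. No microglia marker (0 of 8) and no OPC marker (0 of 7) was called by edgeR or by DESeq2, and 2 and 1 of them had an unadjusted p under 0.05. The blood genes Hbb-bs, Hba-a1 and Hba-a2 rose, Hbb-bs from 16.2, 15.0 and 32.6 CPM in SPF to 66.2, 184 and 145 in GF mice (2.57 ± 0.37, adjusted p = 0.000198, edgeR), and it rose by 2.25 in the nuclei outside the rule.

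**Figure D3:**
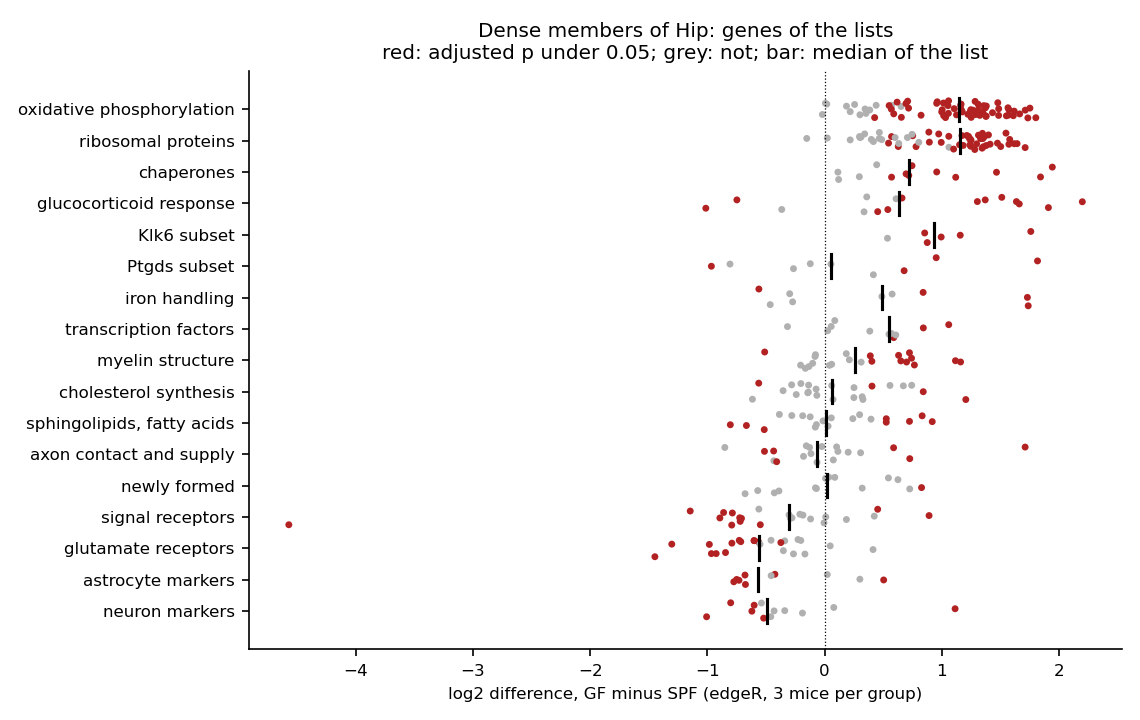
Log2 difference between GF and SPF mice in dense Hip nuclei (horizontal axis) for each tested gene of 17 lists (vertical axis), with red points for an adjusted p under 0.05 and a bar at the median of each list. Oxidative phosphorylation, ribosomal proteins, chaperones and glucocorticoid-responsive genes lie mostly to the right of 0 (medians 1.14, 1.15, 0.72 and 0.64), and glutamate receptors to the left (-0.56).

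The widest shift was in genes of energy and protein synthesis. Of 74 nuclear genes of oxidative phosphorylation 61 rose and none fell (median 1.14), and of 59 cytosolic ribosomal protein genes 41 rose and none fell (median 1.15). The share over all genes tested was 17.2% higher and 14.1% lower. Ndufa4, a subunit of the respiratory chain, was at 371, 473 and 382 CPM in GF mice, 95.9, 128 and 144 in SPF mice, and 88.8, 111 and 150 in CGF mice (1.73 ± 0.19 to SPF, adjusted p = 3.44e-05, edgeR). Rps6 of the small ribosomal subunit had 60.0, 77.4 and 57.3 against 25.3, 20.3 and 35.6 CPM in SPF mice (1.23 ± 0.22, adjusted p = 0.000762). In both genes the groups were apart. Malat1, a nuclear noncoding RNA, took 105170, 104300 and 95411 CPM in GF and 48952, 46114 and 42448 in SPF mice (1.15 ± 0.11), and Gm42418, a transcript that overlaps ribosomal RNA, 562, 710 and 573 against 2316, 1662 and 3792 CPM (-2.07 ± 0.24, adjusted p = 4.62e-05).

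The nuclei outside the rule showed shifts of like size. There, 68 of 80 oxidative phosphorylation genes rose (median 1.01), as did 63 of 77 ribosomal protein genes (0.99), Malat1 (1.15) and Fth1 (1.71), while Gm42418 fell (-2.02). After the data were seen, a test of the difference itself was added. The difference was GF against SPF in dense nuclei minus the same in all other nuclei of the 9 Hip libraries. It was called for 50 genes higher (0.433%) and 219 lower (1.89%) of 11560 in dense nuclei, where higher is meant relative to the other nuclei. With DESeq2's scaling 77.1% of the calls were higher in place of 18.6%, as the median over all genes moved from -0.161 to 0.0518, so that values here are read against that median. With the library as a block 528 genes were called in place of 269, 35 with sums thinned to the lowest total and 47 without GF mouse 6. Of 74 oxidative phosphorylation genes 1 was called, and of 59 ribosomal protein genes and of 13 chaperones none by edgeR or DESeq2, with 3 and 1 at an unadjusted p under 0.05. These list counts come from fits without the library as a block, so few calls do not show equal shifts. Fth1 differed from the other nuclei by -0.11 ± 0.43 (adjusted p = 0.939), Ptgds by 0.33 (0.86) and Cryab by 0.61 (0.349).

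Glucocorticoid-responsive genes were the list with the most higher calls in this test, 4 of 16, against 0.433% higher over all genes tested. That ranking is given with TMM factors only, and with DESeq2's scaling 77.1% of all calls were higher in place of 18.6%. Sgk1 rose in dense nuclei and fell in the others, where it was at 92.6, 82.1 and 84.4 CPM in GF and 115, 134 and 123 in SPF mice (-0.52 ± 0.10, adjusted p = 0.00264, edgeR). The difference between the 2 was 1.90 ± 0.22 (adjusted p = 0.000476), and it was called with each mouse left out. Zbtb16 differed by 1.98 ± 0.33 (adjusted p = 0.00574, and 0.0571 without GF mouse 6), Pdk4 by 1.95 ± 0.37 (adjusted p = 0.0123, up to 0.0664) and Fkbp5 by 1.27 ± 0.29 (adjusted p = 0.0308, up to 0.141 with a mouse left out). In the other nuclei Zbtb16 and Fkbp5 differed by 0.08 and 0.27 and did not pass.

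Myelin genes gave 2 of 22 higher calls against the other nuclei, where 0.433% of all genes tested were higher. These 2 included Anln, of the septin scaffold of myelin (0.94 ± 0.19, adjusted p = 0.0191, edgeR). Anln lost the call with a mouse left out (highest adjusted p 0.102), as did Olig1 (1.05 ± 0.26, adjusted p = 0.0452, up to 0.154) and Gjc3 (1.08 ± 0.25, adjusted p = 0.0333, up to 0.137). Among the genes lower than in the other nuclei were Gria2 (-0.68), Adora1 (-0.58) and Jph4 (-0.63), all of which lost the call with some mouse left out. Lynx1, a modulator of acetylcholine receptors, fell in dense nuclei (-0.69) and rose in the others (0.59 ± 0.11), a difference of -1.42 ± 0.23 (adjusted p = 0.00437) that was called with each mouse left out.

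**Figure D4:**
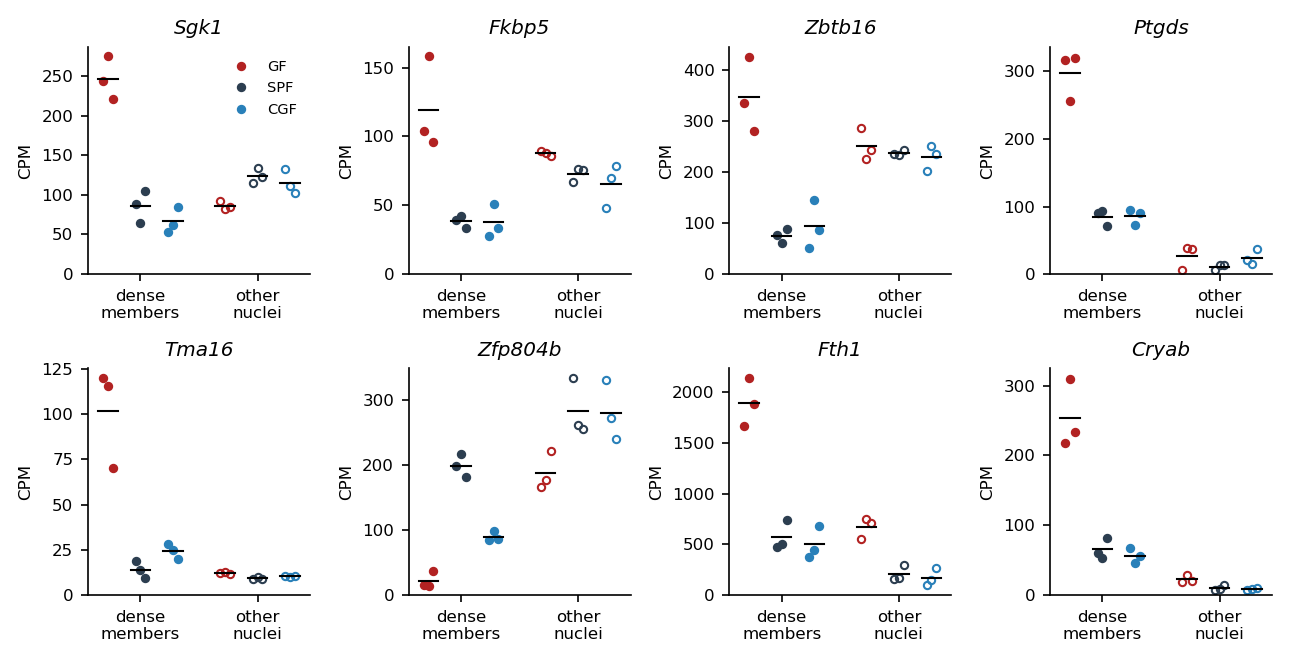
CPM per mouse (vertical axis) of Sgk1, Fkbp5, Zbtb16, Ptgds, Tma16, Zfp804b, Fth1 and Cryab in dense Hip nuclei (filled) and in the nuclei outside the rule (open), by group, with a line at each mean. Sgk1 is higher in GF dense nuclei (221 to 276 CPM) and lower in the other nuclei (82.1 to 92.6 CPM), and Fth1 is higher in both.

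The 5 genes with the highest and the 5 with the lowest log2 difference between GF and SPF mice in dense Hip nuclei, among called genes of at least 50 CPM whose groups did not overlap, were in part of no fixed list. Tma16, linked to ribosome assembly (chromosome 8:66473118-66486530, minus strand, mm10), was at 120, 116 and 70.0 CPM in GF mice, 18.9, 13.7 and 9.58 in SPF mice, and 28.2, 25.1 and 19.8 in CGF mice. It rose by 2.89 ± 0.25 on the log2 scale (adjusted p = 1.38e-05, edgeR), by 0.40 in the other nuclei, and the difference was 2.37 ± 0.27 (adjusted p = 0.000476). Hbb-bs, 1700042O10Rik (2.25 ± 0.26), Zbtb16 and Prss48 (2.20 ± 0.43) followed.

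Tgfbr2 (chromosome 9:116084293-116175360, minus strand), a receptor of TGF-beta, was at 0.769, 2.52 and 5.57 CPM in GF and at 5.51, 4.6 and 5.95 in CGF against 78.7, 81.1 and 54.0 in SPF dense nuclei. Here the SPF mice alone were high. The log2 difference to SPF was -4.57 ± 0.34 in GF (adjusted p = 3.89e-06, edgeR) and -3.71 ± 0.29 in CGF mice (adjusted p = 4.92e-06). In the other nuclei it was at 5.43 to 14.6, 13.2 to 19 and 10.8 to 15.9 CPM in GF, SPF and CGF mice, and the dense nuclei differed from these by -4.19 ± 0.64 (adjusted p = 0.00343). Zfp804b, a zinc finger gene (chromosome 5:6769010-7344756, minus strand), had 14.6, 13.2 and 36.6 CPM in GF mice, 198, 216 and 180 in SPF mice, and 84.5, 97.7 and 86.0 in CGF mice. The 3 groups were apart from each other, at -3.23 ± 0.25 for GF (adjusted p = 3.89e-06) and -1.14 ± 0.20 for CGF against SPF mice (adjusted p = 0.0274). Ldb3 had 6.15, 4.4 and 7.95 CPM in GF and 57.8 to 60.2 in SPF mice (-3.27 ± 0.31, adjusted p = 2.2e-05), followed by Gm32647 (-2.63 ± 0.39) and Smoc1 (-2.54 ± 0.49).

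Against CGF mice the 10 genes named by the same rule were Pdk4 (2.60 ± 0.25), Cryab (2.17), Mgst3 (2.14 ± 0.19), the ATP synthase subunit Atp5g1 (2.11 ± 0.21) and Polr3e (2.11 ± 0.26), which rose, and Gm32647 (-2.64), Zfp804b (-2.09), AY036118 (-2.07), Gm42418 (-2.07) and Cmss1 (-1.92), which fell. Their adjusted p ranged from 8.56e-06 (Cryab, Mgst3 and Cmss1) to 0.000166 (Gm32647) in edgeR.

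Few genes were called between CGF and SPF mice, which also differ in housing and in when they gained microbes. With 3 mice in each group, a lack of calls does not show equal levels. Of the 18 genes called between CGF and SPF mice in dense Hip nuclei 1 was in a list, Tgfbr2. At an unadjusted p under 0.05, 932 genes differed. Mid1, a ubiquitin ligase of microtubules (chromosome X:169685199-170005736, plus strand, mm10), was at 124, 217 and 175 CPM in CGF, 15.1, 9.16 and 24.5 in SPF mice and 56.2, 47.2 and 52.5 in GF mice. CGF mice were the highest (3.32 ± 0.26 to SPF, adjusted p = 4.92e-06, edgeR), and the nuclei outside the rule rose as well (2.88, adjusted p = 0.00402). Cyp2d22 (chromosome 15:82370527-82380260, minus strand) was at 73.5, 51.1 and 62.2 CPM in CGF, 74.6, 62.9 and 59.6 in GF and 15.1, 9.16 and 21.4 in SPF mice. It was low in SPF mice alone (1.95 ± 0.23, adjusted p = 0.00065), and in the nuclei outside the rule the same difference was 0.04.

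Gm5535, a long noncoding RNA (chromosome 2:144098815-144207990, minus strand), was at 376, 357 and 296 CPM in CGF, 128, 120 and 85.8 in SPF mice and 291, 228 and 203 in GF mice (1.63 ± 0.17, adjusted p = 0.000207, edgeR). Fbn2, a fibrillin, had 179, 145 and 133 against 51.2, 37.9 and 52.1 CPM in SPF mice (1.68 ± 0.19, adjusted p = 0.000547). These genes and Tgfbr2 were called under every alternative and with each mouse left out. Plekhh2 (-1.27 ± 0.17, adjusted p = 0.00155) and Fam13c (-1.20 ± 0.20, adjusted p = 0.0193) fell in CGF mice. Adipor2, an adiponectin receptor, had 179, 290 and 245 CPM in CGF, 532, 379 and 524 in SPF mice and 1134, 1049 and 894 in GF mice, so that colonized mice lay farther from GF mice than SPF mice did (-1.01 ± 0.18, adjusted p = 0.0274). The calls of Fam13c, Adipor2, Zfp804b and Gm4876 (1.10 ± 0.20) were lost with some mouse left out, at an adjusted p of up to 0.193.

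In PFC 5625 genes could be tested in dense nuclei. Between GF and SPF mice 1067 were higher (19%) and 1063 lower (18.9%), between GF and CGF mice 995 (17.7%) and 1020 (18.1%), and between CGF and SPF mice 5 (0.0889%) and 3 (0.0533%). All members gave 2484 of 6702 (37.1%), 2409 (35.9%) and 7 (0.104%). Every GF comparison in this region is also one of deep against shallow libraries. Genes with reads of ribosomal RNA had the following values. Gm42418 (chromosome 17:39846958-39848788, plus strand, mm10) was at 347 to 574 CPM in GF mice, 31965 to 53399 in SPF mice, and 40226 to 80349 in CGF mice (-6.42 ± 0.28 to SPF, adjusted p = 2.83e-15, edgeR), and at -6.40 in the nuclei outside the rule. AY036118, Lars2 and Cmss1 fell by 4.74, 5.34 and 5.40 on the log2 scale.

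Of the glucocorticoid list 10 genes could be tested in PFC, of which 5 rose and Arrdc2 fell (median 0.79), against 19% and 18.9% of all genes of that region. Sgk1 was at 277, 308 and 243 CPM in GF mice, 136, 58.3 and 78.5 in SPF mice, and 40.3, 118 and 72.1 in CGF mice, with no overlap (1.64 ± 0.26 to SPF, adjusted p = 2.11e-05, edgeR). Zbtb16 had 370, 500 and 302 against 136, 101 and 152 CPM (1.57 ± 0.29, adjusted p = 0.000106) and Fkbp5 124, 125 and 79.3 against 13.6, 15.9 and 41.6 CPM (2.09 ± 0.37, adjusted p = 7.76e-05). The GF mice were the highest in each. Against the other nuclei of the same libraries Sgk1 differed by 1.35 ± 0.27 (adjusted p = 0.00466) and Zbtb16 by 1.68 ± 0.35 (adjusted p = 0.00537), but Fkbp5 by 0.20 (adjusted p = 0.865), since it rose by 1.82 there too. With all sums thinned to the lowest total, the Sgk1 call against the other nuclei was lost. Cryab was at 235, 363 and 245 against 61.3, 63.6 and 60.1 CPM (2.17 ± 0.26, adjusted p = 3.74e-07).

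Of 22 myelin genes in PFC 6 rose and 4 fell, near the shares over all genes of that region (19% and 18.9%). Gpm6b, a membrane protein of glia and neurons, rose by 0.96 (adjusted p = 3.5e-05, edgeR). Cnp had 168, 251 and 187 against 259, 307 and 448 CPM and fell (-0.78 ± 0.21, adjusted p = 0.00403), as did Ermn (-0.67), Pllp (-0.73) and Tppp (-0.92). Cnp, Ermn and Pllp lost the call with a mouse left out (highest adjusted p 0.103, 0.133 and 0.105 in edgeR, when SPF mouse 32, SPF mouse 31 and GF mouse 7 in turn were removed). Mbp differed by -0.28 (adjusted p = 0.128). The rule gene Mog was at 1005 to 1316 CPM in GF and 393 to 482 in SPF mice, while Mobp was at 1503 to 1765 and 1751 to 1797.

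Of 19 genes of sphingolipids and fatty acids in PFC 5 rose and 4 fell, again near the shares over all genes. Fa2h, which hydroxylates fatty acids of galactolipids, had 660, 681 and 642 CPM against 347, 292 and 323 in SPF mice (1.05 ± 0.16, adjusted p = 1.32e-05, edgeR), and Gal3st1 (1.05) and Ugt8a (0.68), which make sulfatide and galactosylceramide, rose too. Aspa, which frees acetate from N-acetylaspartate, had 1022, 1140 and 811 against 375, 588 and 337 CPM (1.19 ± 0.19, adjusted p = 1.61e-05). GF and SPF mice were apart in both. Elovl1 (-1.59) and Fasn (-1.43) fell. Sox10 was at 424, 372 and 311 against 95.3, 201 and 92.4 CPM (1.5 ± 0.23, adjusted p = 1.35e-05), and Nkx6-2 fell, from 170, 164 and 97.0 in SPF to 49.3, 62.7 and 42.1 in GF mice (-1.47 ± 0.25, adjusted p = 4.56e-05). Among receptors Erbb4, of neuregulin, had 3590, 3348 and 3338 against 1430, 1156 and 1076 CPM (1.49 ± 0.15, adjusted p = 1.57e-08) and Fgfr2 1818, 1868 and 1616 against 661, 620 and 587 CPM (1.51 ± 0.15, adjusted p = 1.7e-08).

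Of the 5 genes with the highest log2 difference to SPF mice in PFC (Gm42439, Gm12145, Gm48250, Gm32250 and Nrg3os) only levels bear on GF mice, since they were at 0 in every SPF mouse, and no fold is given. The 5 lowest were Gm48099 (-7.54 ± 0.47), Il31ra (-7.07 ± 0.43), Gm42418, Gm19951 (-6.11 ± 0.34) and Camk1d (-5.62 ± 0.22). Against all other nuclei of the PFC libraries 249 genes were higher (4.43%) and 219 lower (3.89%), or in either direction 468, 766 with the library as a block and 69 with thinned sums. The share of higher calls was 53.2%, 43.7% with DESeq2's scaling and 73.8% with library totals. Tma16 repeated its Hip pattern, at 90.4, 174 and 142 against 6.81, 15.9 and 27.7 CPM (2.87 ± 0.41, adjusted p = 4.51e-06; against the other nuclei 3.52 ± 0.43, adjusted p = 3.95e-05).

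The comparison of CGF and SPF mice in PFC is within libraries of like depth. Gm5535 was again higher in CGF mice, at 426, 355 and 400 CPM against 102, 90.1 and 55.4 in SPF mice (2.28 ± 0.24, adjusted p = 3.54e-06, edgeR), and this was called under every alternative. Sim2, a transcription factor, was at 97.8, 88.8 and 168 CPM in CGF mice and at 0 in every GF and SPF mouse. Cdk8 of the Mediator complex was at 615, 952 and 809 CPM in CGF, 320, 392 and 374 in SPF mice and 103, 85.7 and 102 in GF mice (1.12 ± 0.19, adjusted p = 0.00412, and 0.0559 without CGF mouse 18). Fam13c fell as in Hip, with 115, 187 and 144 against 483, 467 and 309 CPM (-1.46 ± 0.25, adjusted p = 0.00493, and 0.0637 without CGF mouse 17). Stk19 (1.93) and Fcho1 (1.75) rose and Ppp6r1 (-2.27) and AC149090.1 (-1.91) fell, and each of these 4 calls was lost with some mouse left out (adjusted p up to 0.244, edgeR). No gene of a list passed in edgeR or DESeq2, and 449 of 5625 genes had an unadjusted p under 0.05. The share of higher calls was 62.5%, 33.3% with DESeq2's scaling and 55.6% with library totals, of few calls each.

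The 2 regions were compared within GF mice, whose dense nuclei were alike in depth. In the fit of all 18 libraries 232 genes were higher in Hip (1.96%) and 199 lower (1.68%) of 11864, and in either direction 431 were called, 757 with the mouse as a block, 46 with thinned sums and 147 without GF mouse 6. None of 22 myelin genes was called by edgeR in either direction (median 0.01; 2 at an unadjusted p under 0.05, and 1 lower in Hip by DESeq2), with log2 differences of 0.03 for Mbp, 0.03 for Mal and 0.00 for Cnp. Sgk1 (0.03), Zbtb16 (0.02), Cryab (0.05) and Fkbp5 (0.33) did not pass either. The count of myelin genes comes from fits without the mouse as a block, and a lack of calls does not show equal levels. With sparse nuclei included Mbp (-0.65), Mal (-0.67) and Sgk1 (-0.49) turned negative and were called. Over all members, sparse nuclei included, 2516 of 13658 genes were called (18.4%). In SPF and CGF mice, where Hip is deep and PFC shallow, 2987 (25.2%) and 2962 (25%) dense and 4758 (34.8%) and 5111 (37.4%) all-member genes were called, and region cannot be told apart from library there.

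The 5 genes with the highest difference included genes known from neurons. Dense nuclei of GF mice held summed neuron markers of 5284 to 8051 CPM in Hip and 6685 to 8955 CPM in PFC. The part of RNA of other cells in the regional differences was not tested. Shisa6, an AMPA receptor partner, was at 76.3, 76.9 and 119 CPM in Hip and 5.20, 15.0 and 7.0 in PFC of GF mice (3.39 ± 0.35, adjusted p = 1.31e-06, edgeR). Tubb2b, a tubulin (chromosome 13:34126748-34130466, minus strand, mm10), was at 66.1, 62.9 and 70.1 against 22.9, 17.8 and 14.0 CPM (1.87 ± 0.22, adjusted p = 1.43e-05). Every mouse was higher in Hip. Nnat (2.01 ± 0.31) and Cnih2 (1.73 ± 0.26) were also in the first 5, as was Ttr of the choroid plexus, which was listed at 10.1, 6214 and 1326 CPM in Hip and at 0 to 4.1 in PFC, so that its Hip level varied widely between mice. Rgs6, a regulator of G protein signals, was lower in Hip, at 6.23, 24.8 and 22.5 against 44.7, 71.1 and 144 CPM (-2.28 ± 0.34, adjusted p = 0.000164), beside Gm28928 (-2.60), Efna5 (-2.08), Fhod3 (-1.99) and Cdh18 (-1.98). Of 67 ribosomal protein genes 11 were higher in Hip and of 75 oxidative phosphorylation genes 7, against 1.96% higher and 1.68% lower over all genes tested. Both list counts come from the fit without the mouse as a block. Tcf7l2, which marks oligodendrocytes that begin to make myelin, was lower in Hip, at 167, 149 and 205 against 278, 287 and 352 CPM (-0.82 ± 0.22, adjusted p = 0.0253), a call that was lost with any GF mouse left out.

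Whether GF and SPF mice differed by the same amount in both regions was tested in the same fit. For 779 genes the GF-minus-SPF difference was higher in Hip (6.57%) and for 844 lower (7.11%), and all members gave 2660 of 13658 (19.5%). Ptgds differed by 1.70 ± 0.22 between the regions (adjusted p = 2.64e-06, edgeR): it rose in Hip and was at 412, 413 and 383 CPM in GF and 313, 392 and 393 in SPF PFC. Fth1 differed by 1.79 ± 0.29 (adjusted p = 7.67e-05), with 1206, 1221 and 1193 against 878, 1134 and 1677 CPM in PFC. Cnp (1.42 ± 0.26), Heph (1.68 ± 0.29), Mt1 (1.58 ± 0.33) and Mal (0.86 ± 0.22; adjusted p = 0.0565 without SPF mouse 31, edgeR) also had the higher difference in Hip, and Nr3c2 differed the other way (-1.20 ± 0.27). Of 67 ribosomal protein genes 27 were called, all higher in Hip (median 1.26), and of 22 myelin genes 5 higher and 1 lower. For Sgk1 (-0.12, adjusted p = 0.863), Fkbp5 (-0.42, 0.653), Zbtb16 (0.64, 0.385) and Cryab (-0.22, 0.747) no difference between the regions was called. The PFC side of each of these differences is one of deep against shallow libraries.

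**Figure D5:**
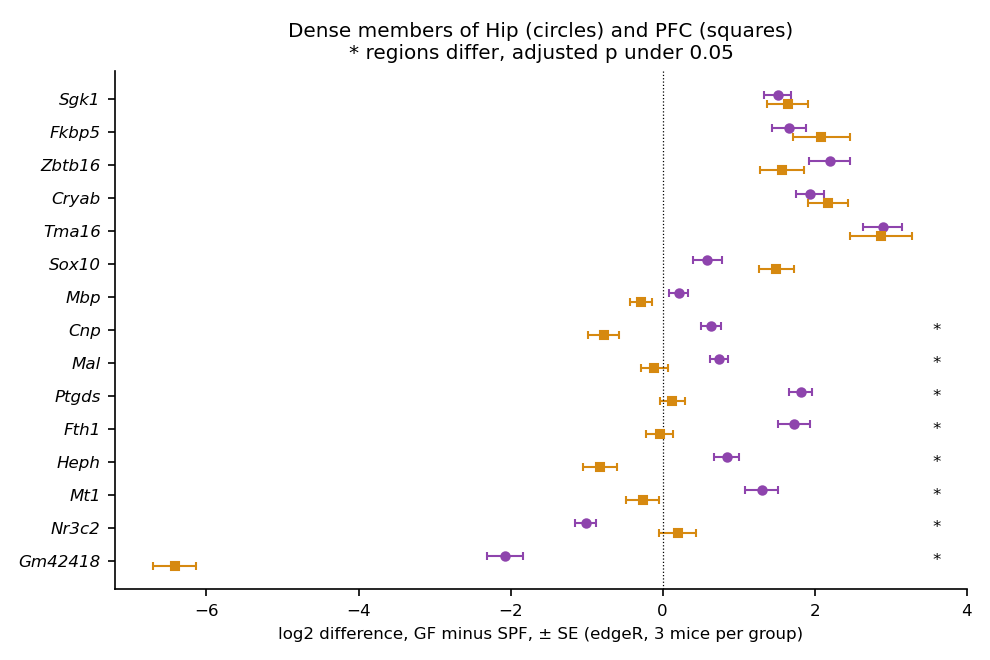
Log2 difference between GF and SPF mice (horizontal axis) with its SE for 15 genes (vertical axis) in dense nuclei, circles for Hip and squares for PFC, each from its region's own fit, with a star where the regions differ in the 18-library fit. Sgk1, Fkbp5, Zbtb16 and Cryab are right of 0 in both regions, and Cnp, Mal, Ptgds, Fth1, Heph, Mt1, Nr3c2 and Gm42418 carry a star.

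Precursors of the same lineage were the nearest cell type. By a like rule on Pdgfra and Cspg4 there were 816 OPC nuclei, 537 in Hip and 279 in PFC. A PFC library held 55 to 89 OPC nuclei in GF mice, 4 to 14 in SPF mice, and 6 to 10 in CGF mice. The OPC sums of PFC held 207875 to 368507 UMIs in GF and 6384 to 22664 in SPF mice. All PFC calls against OPC below, over dense nuclei and over all members, rest on these few SPF nuclei. GF against SPF in dense nuclei minus the same in OPC was called for 5 of 10965 genes in Hip (0.0456%), and for 24 with the library as a block. Sgk1 was higher in dense nuclei relative to OPC (1.43 ± 0.28, adjusted p = 0.0365, edgeR), and Zfp804b (-3.88 ± 0.61, adjusted p = 0.00266), Gpr37l1 (-2.27 ± 0.38) and Inpp4b (-1.79 ± 0.35) were lower. Each of these 4 calls was lost with some mouse left out (adjusted p of up to 0.273 for Sgk1 and 0.367 for Zfp804b), and over all members Sgk1 (adjusted p = 0.814) and Zfp804b (0.713) did not pass. In PFC 39 of 6447 genes were called (0.605%), all lower, where the median over all genes was -0.53; DESeq2 called 11 higher and 11 lower, and library totals gave 8 calls. With a mouse left out the count was 2 (without SPF mouse 30) to 8 (without SPF mouse 32) in Hip and 40 to 185 (without CGF mouse 17) in PFC. Over all members the same test called 6 of 13015 genes in Hip (0.0461%), and 59 with the library as a block. Gpr37l1 (-2.35 ± 0.35, adjusted p = 0.00358, edgeR), Inpp4b (-1.47 ± 0.27, adjusted p = 0.0301), Car10 (-1.31 ± 0.24, adjusted p = 0.0301) and Apba2 (-1.26 ± 0.24, adjusted p = 0.0402) were lower. Zbtb16 was lower too (-1.62 ± 0.30, adjusted p = 0.0301, edgeR), in contrast to its rise in dense nuclei relative to all other nuclei. The members, which here hold the sparse nuclei, and the reference both differ between these 2 tests. In dense nuclei minus OPC Zbtb16 was not called. In PFC 2 of 7074 genes were called over all members (0.0283%), or 4 with the block, Ctnna3 (-4.79 ± 0.88) and Fam19a1 (-2.88 ± 0.55). Without SPF mouse 32 no Hip gene was called over all members by edgeR and 818 had an unadjusted p under 0.05, against 832 with it, where DESeq2 called 25 genes.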

How the data were processed

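Nuclei of Hip and PFC of 9 mice were profiled with the 10x Genomics 3′ assay. The authors deposited counts of UMIs per gene and nucleus for 30905 genes in 18 libraries, made with Cell Ranger on mm10 with Ensembl annotation; whether intronic reads were counted is not given in the sources used here. The submitters' processing notes also name CASAVA 1.8. The deposited counts are raw, and every per-sample column was used (0 left out).

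Groups and mouse numbers came from the sample labels. Of 139924 barcodes, 138000 with at least 200 genes and at most 10% mitochondrial UMIs were kept. No doublet caller was run, and mixed nuclei were not measured. UMIs were summed per library and tested with edgeR 4.0.16 (filterByExpr, TMM, glmQLFit, glmQLFTest; R 4.3.3), within a region over 9 libraries, between regions over 18, and against other nuclei over 18 sums of a region, with Benjamini-Hochberg adjustment over all genes tested and a threshold of 0.05. The SE is the absolute log2 fold change over the square root of F. DESeq2 1.42.0 was an alternative. Shares of nuclei were compared with exact permutation tests (scipy 1.17.1). The smallest p of 3 against 3 is 0.1. Levels of different genes were not compared, as 3′ counts are not per length. Intervals from nuclei were not used, since the mouse is the replicate.

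The tests were checked on simulated data: in Hip, over 11560 genes, edgeR found 63% of genes changed by 1 and 95% of those changed by 2 on the log2 scale, and in PFC, over 5625 genes, 60% and 97%. It also called 12 unchanged genes in Hip and 11 in PFC. DESeq2 found 59.8% and 92.8% in Hip and 37.6% and 96.7% in PFC, with 4 and 2 unchanged genes called. The simulation changed 100 genes by each size, as many up as down, with a spread taken from the fitted trend. Many more genes were called in the data between GF and SPF mice, so these rates need not hold there.

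Both regions of a number come from the same mouse. Deviations from the group means over 4097 genes correlated by 0.0174 to 0.389 within a mouse (9 pairs) and by -0.207 to 0.0324 with other mice of the group (18 pairs). Such deviations sum to 0 within a group, so values above 0 within a mouse push the others down. In CGF mice the 2 kinds overlapped (0.0174, 0.117 and 0.0232 within a mouse, up to 0.0324 with other mice). The fit with the mouse as a block is printed where it moves a count by over 1.5 times.

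The members and the 22 gene lists were chosen with earlier results of these data known. The limit for dense nuclei and the tests against all other nuclei of a region were set after the data were seen. Text names genes of the lists and, per comparison, the 5 that rose most and the 5 that fell most in log2 difference among called genes of at least 50 CPM in a group whose groups do not overlap, except some genes that are not reported here. Gene positions are those of the GENCODE vM21 annotation of mm10. Alternatives were other rule limits, nuclei with no UMI of the 10 other genes, other scaling and tests, no filter, thinning and leaving out each mouse.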

Additional observations from a re-analysis of the deposited data

Results flagged for a closer look

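The difference between GF and SPF mice was itself different in Hip and PFC for 1623 genes in dense nuclei, by an interaction contrast in the 18-library edgeR fit. As log2 difference in Hip minus that in PFC it was 1.79 for Fth1, 1.70 for Ptgds, 1.42 for Cnp, 1.68 for Heph, 1.58 for Mt1 and 0.86 for Mal, and -1.20 for Nr3c2 (adjusted p 2.64e-06 to 0.00748). The call of Mal was lost without SPF mouse 31 (adjusted p = 0.0565, edgeR). With the mouse as a block 1985 genes were called. GF libraries of PFC held 59126586 to 71463928 UMIs and the other 6 libraries of that region 20336250 to 26949210, so that the PFC side cannot be told apart from the library.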

How the results depend on the processing

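Counts of called genes follow, over all members unless dense nuclei are named, in the order Hip (GF-SPF, CGF-SPF, GF-CGF), PFC (same), Hip against PFC (GF, SPF, CGF), regional difference, minus OPC (Hip, PFC), as far as they moved by over 1.5 times. Without any UMI of the 10 other genes they were 2283, 29, 3353; 1398, 3, 1364; 724, 2188, 2720; 869; and 93 against OPC in PFC. Dense nuclei then gave 2243 and 2477 in Hip, 1344, 3 and 1286 in PFC, 182 between regions in GF mice and 862 for the regional difference. With at least 2 rule UMIs CGF-SPF gave 117 and 14, Hip against PFC in GF mice 3806, minus OPC 3 and 32, and dense PFC CGF-SPF 14. With at least 8, PFC gave 1164, 3 and 1019, the regions 1027, 2786 and 2806, the regional difference 1705, minus OPC in PFC 0 (309 of 4310 genes at an unadjusted p under 0.05, edgeR), and dense PFC 1036, 3 and 848. DESeq2 gave 195 for CGF-SPF in Hip, 25 and 5 minus OPC, and 30 for dense CGF-SPF in Hip. Library totals gave 79 for CGF-SPF in Hip and 3 minus OPC. No filter gave 370 and 24 for CGF-SPF, 38 and 13 minus OPC, 125 and 23 for dense CGF-SPF and 649 between regions of dense GF nuclei. A fit of 2 groups gave 258 for CGF-SPF in Hip. Dense in place of all members gave 18 (CGF-SPF) and 3774 (GF-CGF) in Hip, 431, 2987 and 2962 between regions, 1623 for the regional difference and 39 minus OPC in PFC; all members in place of dense gave 51, 5739, 2516 and 2660.

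Thinned to the lowest library total, PFC gave 1308 and 1319 against SPF and CGF mice, the regions 679, 2046 and 2281, the regional difference 689 and minus OPC 1 and 0 (5 of 105 genes at an unadjusted p under 0.05 in PFC, edgeR). Dense nuclei then gave 1014 and 992 in PFC, 46 between regions in GF mice, 424 for the regional difference and 35 and 69 against other nuclei. With the library as replicate block minus OPC gave 59 and 4 and dense minus other nuclei 528 and 766; with the mouse as block the regions of dense GF nuclei gave 757. Beside these and the count of dense nuclei minus OPC in Hip given above, the block moved no other count by over 1.5 times. Over all members, library totals in place of TMM factors moved the share of higher calls by over 10 points (CGF-SPF Hip 47.1% to 27.8%, GF-CGF Hip 54.2% to 70.4%, Hip against PFC in SPF 58.4% to 42.5% and CGF 56.3% to 37.9%, regional difference 40.6% to 59.9%, or 52.8% with DESeq2), where the cause was not tested. Minus OPC it was 16.7% (24% with DESeq2, 33.3% with library totals) in Hip and 0% (100%, 50%) of 2 to 5 calls in PFC.

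With each mouse left out, all-member counts were 3756 to 4961, 11 to 201 and 4624 to 5792 in Hip, 1988 to 2622, 3 to 8 and 2032 to 2546 in PFC, 1323 to 2565, 3342 to 4738 and 3746 to 5198 between regions, 1671 to 2662 for the regional difference, and 0 to 6 and 1 to 21 minus OPC. Dense counts were 2241 (without GF mouse 6) to 3624, 9 to 24 and 2621 to 3940 in Hip, 1718 to 2286, 5 to 10 and 1641 to 2116 in PFC, 147 (without GF mouse 6) to 490 between regions, 981 (without SPF mouse 30) to 1735 for the regional difference, and 47 (without GF mouse 6; 54 without SPF mouse 30, 78 without GF mouse 5, 94 without GF mouse 7) to 283 and 210 (without SPF mouse 30) to 542 against other nuclei. The GF-SPF share difference of members was -4.05 to -2.59 points in Hip and 2.12 to 2.58 in PFC, and Hip minus PFC 8.70 to 9.98. In Hip it was -2.39 (p = 0.143 over 3 groups, exact permutation test) with dense nuclei, -2.37 (p = 0.15) with at least 500 genes as well, -1.94 (p = 0.154) thinned, -2.85 (p = 0.0893) with 8 rule UMIs and in PFC 1.16 (p = 0.136) with 2. The Hip difference with at least 2 rule UMIs was -2.87 (p = 0.00357 over 3 groups, adjusted 0.0286, exact permutation test). Of 248 calls of named genes 157 were kept under every alternative other than leaving out a mouse and 162 with each mouse left out. Between regions of GF mice Mbp (-0.65), Mal (-0.67) and Sgk1 (-0.49) turned negative and were called when sparse nuclei were included.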
